A study of Mus musculus with 6 samples.

Results

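The genes described here encode the proteins of the cytosolic ribosome, read in mouse hearts under pressure load. They were chosen by symbol from the count table: every row whose symbol is Rpl or Rps followed by a digit, with Rplp0, Rplp1, Rplp2, Rpsa and Fau, and without Rpl3l, rows with -ps in the symbol and the Rps6k kinases. This gave 88 of 24404 rows, of which 52 were counted by symbol with the large subunit and 35 with the small subunit. The remaining row, Rps19bp1, encodes a protein that binds Rps19 and is not itself a part of the ribosome. Rpl37rt and Rps4l match the symbol rule and are in these subunit counts, but are transcribed processed pseudogenes in the GENCODE annotation. The large subunit count also holds Rpl7l1, a relative of Rpl7 in ribosome assembly.

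Heart samples were labelled miR-204-/- (KO-TAC, 3 samples) or wild type (WT-TAC, 3 samples), and each was sequenced as 1 library. All 6 had undergone transaortic constriction, an operation that narrows the aorta and makes the left ventricle pump against a higher pressure, and were collected 5 weeks later. Unoperated hearts were not analysed here, so each value compares the genotypes after surgery and none measures the surgery itself. The labels give neither strain, age, sex, how the deletion was made nor how many animals a sample holds, so p-values measure only the spread between these samples.

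A cytosolic ribosome joins a small subunit, which reads the messenger RNA, to a large subunit, which forms the peptide bond. Apart from the stalk proteins Rplp1 and Rplp2, most ribosomal proteins are needed in about equal number. In vertebrates these messenger RNAs begin with a stretch of pyrimidines, the 5' terminal oligopyrimidine (TOP) tract, through which the mTORC1 kinase and the RNA-binding protein Larp1 control their translation. A heart that grows under load makes more ribosomes, and the abundance of these transcripts is one layer of that supply.

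The start of these genes is shown first, since many of them have a pyrimidine run near it. RefSeq promoters were at hand for 67 of the 88 genes. In 35 of them (52.2%) a run of at least 7 C or T bases touched the 10 bases on either side of the start, against 22.4% of 26958 other genes. The lines below run from 60 bases before to 20 bases after the RefSeq start (GRCm38.p6). Capitals mark the longest pyrimidine run that touches the 10 bases on either side of the start. They show some of the genes named later and are not a sample of the 67. Of named genes not shown, Rpl24 has a run of 2 bases, Rplp0 of 5, Rps9 of 9 and Rplp2 of 10.
Fau, chr19:6057887-6057966, plus strand: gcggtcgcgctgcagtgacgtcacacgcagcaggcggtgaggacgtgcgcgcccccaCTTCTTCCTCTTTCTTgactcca
Rps25, chr9:44407654-44407733, plus strand: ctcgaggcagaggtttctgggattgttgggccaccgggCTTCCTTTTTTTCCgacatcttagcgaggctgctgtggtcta
Rpl13a, chr7:45128726-45128805, minus strand: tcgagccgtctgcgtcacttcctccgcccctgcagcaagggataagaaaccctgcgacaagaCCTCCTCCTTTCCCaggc
Rps12, chr10:23787190-23787269, minus strand: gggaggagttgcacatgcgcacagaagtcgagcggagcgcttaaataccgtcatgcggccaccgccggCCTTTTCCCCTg
Rps6, chr4:86857348-86857427, minus strand: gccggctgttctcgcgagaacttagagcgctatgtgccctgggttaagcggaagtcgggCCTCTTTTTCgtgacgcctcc
Rpl22l1, chr3:28805448-28805527, plus strand: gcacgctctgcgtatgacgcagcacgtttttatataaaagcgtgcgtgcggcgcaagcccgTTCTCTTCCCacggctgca
Rpl12, chr2:32961652-32961731, plus strand: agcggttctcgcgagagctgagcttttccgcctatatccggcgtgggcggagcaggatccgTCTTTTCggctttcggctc
Rpsa, chr9:120127706-120127785, plus strand: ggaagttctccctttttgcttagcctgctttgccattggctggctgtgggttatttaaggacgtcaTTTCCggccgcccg
The run is 16 bases long in Fau, 14 in Rps25 and in Rpl13a, 11 in Rps12, 10 in Rps6 and in Rpl22l1, 7 in Rpl12 and 5 in Rpsa, which is under the bound used for the count. In Rps25 the run ends before the start, and in Rps12 and Rpsa it begins several bases after the start. The count is therefore not one of TOP tracts. The core CTTTC of the tract lay within 10 bases of the start, on the sense strand, in 17.9% of the 67 genes and 2.87% of the others. In the whole window, 250 bases before to 50 after the start, CCGGAAG, a site form of ETS factors, was found on either strand in 38.8% and 9.86%, and AAGATGGC, part of the YY1 site, in 10.4% and 3.17%. Between the genotypes, the 32 tested genes with a run of at least 7 had 25 fold changes above 0 (median log2 value 0.19), and the 29 without one had 17 (median 0.15).

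The libraries held 6411538 to 8571737 counts. Cardiomyocyte markers summed to 60751 to 86641 CPM (CPM are a gene's counts scaled to a fixed library total, with library sizes adjusted by the trimmed mean of M-values, TMM) in the 6 libraries, which fits the labelled heart. T cell markers summed to at most 3.33 CPM and B cell markers to at most 7.55. Haemoglobin genes Hba-a1, Hba-a2, Hbb-bs and Hbb-bt are listed at 0 in each library, so blood cannot be judged from them. Alas2, the other erythroid marker, had 22.6 to 52.5 CPM in KO-TAC and 40.6 to 71.6 CPM in WT-TAC. Its log2 fold change was −0.71, at an edgeR p under 0.05 before adjustment but not after. Neutrophil markers summed to 4.43 to 12.6 CPM in KO-TAC and 2.33 to 28.6 CPM in WT-TAC, highest in WT-TAC replicate 1. The Mir204 row is also listed at 0 in each library, wild type included, so these counts do not check the deletion. The column used for KO-TAC replicate 3 carries another leading number than its label, the one that the WT-TAC replicate 3 column also carries. That column was assigned by its library index, so the genotype of this library is less sure than that of the others. The summary values are therefore also given without KO-TAC replicate 3.

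The ribosomal protein rows together held a share of the counts of 0.926%, 0.754% and 0.624% in KO-TAC replicates 1, 2 and 3, against 0.584%, 0.746% and 0.753% in WT-TAC replicates 1, 2 and 3. This share averaged 0.768 ± 0.152% in KO-TAC and 0.695 ± 0.0955% in WT-TAC (SD, n = 3 each). The groups overlapped: KO-TAC replicate 1 was highest of the 6 and WT-TAC replicate 1 lowest, with KO-TAC replicate 3 next above it. Without KO-TAC replicate 1 the log2 ratio of the mean shares, 0.15 with all libraries, was −0.012, and without WT-TAC replicate 1 it was 0.035. It was 0.27 without KO-TAC replicate 3 and 0.21 without WT-TAC replicate 3. The large subunit genes took 0.456 ± 0.0858% of counts in KO-TAC and 0.414 ± 0.0563% in WT-TAC, and the small subunit genes 0.311 ± 0.0660% and 0.280 ± 0.0393% (SD, n = 3 each), so both subunits stood in nearly the same proportion in each genotype. In bulk tissue fewer cells of a type and less RNA per cell cannot be told apart.

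**Figure D1:**
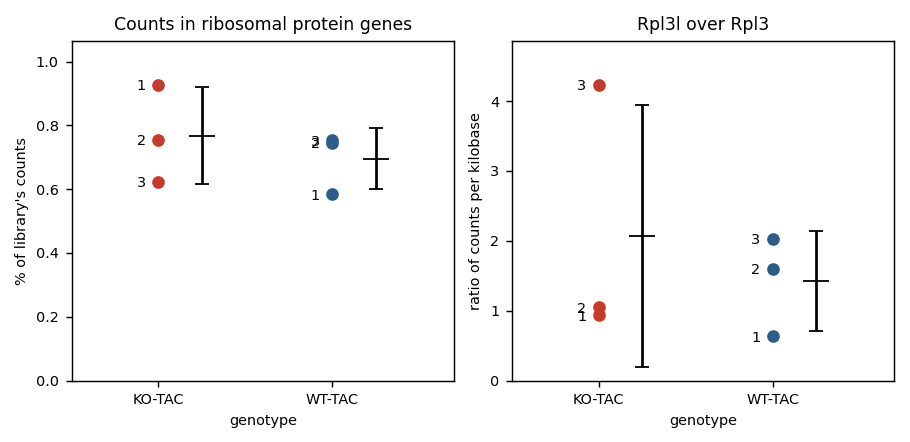
Left, the share of each library's counts in the 88 ribosomal protein rows (%), and right, counts per kilobase of Rpl3l over those of Rpl3, for KO-TAC and WT-TAC. Points are libraries with their replicate number and bars are the mean and SD of 3 libraries; the share ran from 0.624% to 0.926% in KO-TAC and from 0.584% to 0.753% in WT-TAC, and the ratio was highest in KO-TAC replicate 3 at 4.23 and lowest in WT-TAC replicate 1 at 0.634.

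No ribosomal protein gene passed the test between the genotypes. After edgeR's filter on low counts 82 of the 88 genes were tested, and 0 passed in edgeR's quasi-likelihood test at a p under 0.05, Benjamini-Hochberg adjusted over 12487 genes. Their smallest adjusted p was 0.999. Over all tested genes 0.024% were called, 0.016% as higher and 0.00801% as lower in KO-TAC. DESeq2 and limma-voom also called 0 of the 82. Before adjustment, 0 of the 82 had a p under 0.05 and a higher level in KO-TAC, against 1.36% of all tested genes. In the lower direction it was 1 of the 82, Rpl21, against 1.57%.

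Fold changes of the 82 genes leaned above zero. The median log2 fold change was 0.18, with 59 genes above 0 and 23 below, against a median of 0.0012 and 50.2% above 0 over all tested genes. Their quartiles were −0.0060 and 0.31, against −0.18 and 0.19 over all tested genes. Of the 82, 28 lay above 0.25 and 6 below −0.25, against 2417 and 2400 of the 12487. The lean was alike in the large subunit, with 35 of 48 genes above 0 and a median of 0.18, and in the small subunit, with 24 of 33 and a median of 0.17. Genes with a mean of at least 50 CPM had 40 of 49 above 0 (median 0.20), and those under it 19 of 33 (median 0.084). The size of the lean depended on single libraries: without WT-TAC replicate 1 the median was 0.034 with 46 of 83 genes above 0, and without KO-TAC replicate 1 it was 0.079 with 53 of 83. The median was larger at 0.22 with 66 of 83 without KO-TAC replicate 3 and 0.25 with 65 of 82 without WT-TAC replicate 3.

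**Figure D2:**
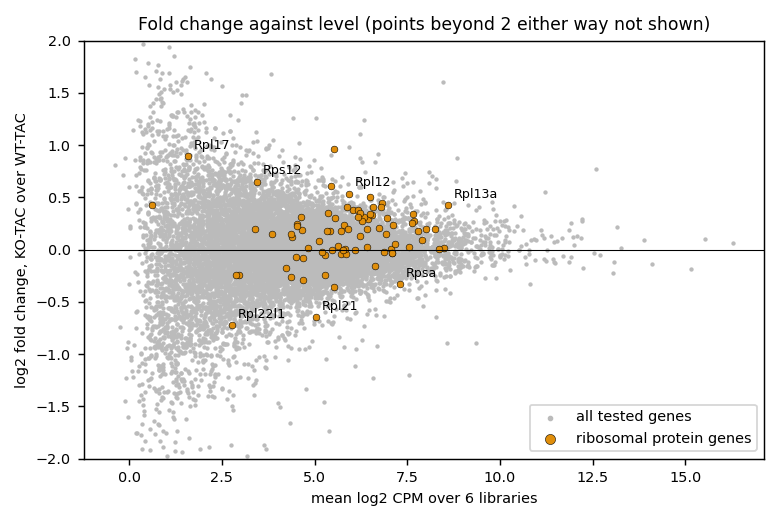
Log2 fold change of KO-TAC over WT-TAC (vertical axis) against mean log2 CPM over 6 libraries (horizontal axis) for all tested genes (grey) and the 82 tested ribosomal protein genes (orange). The ribosomal protein genes lie mostly just above 0, with a median of 0.18, inside the cloud of other genes of like level.

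A few libraries held most of the extreme values. KO-TAC replicate 1 held the highest value of the 6 libraries in 45 of the 82 genes (54.9%), where it was highest for 17.3% of all tested genes. At the other end, WT-TAC replicate 1 held the lowest value in 37 genes (45.1%, against 23.2% of all tested genes) and KO-TAC replicate 3 in 28 (34.1%, against 20.4%), together 65 of the 82. The median gene stood 0.24 above its own mean over libraries on the log2 scale in KO-TAC replicate 1, 0.12 above in KO-TAC replicate 2 and 0.20 below, at −0.20, in KO-TAC replicate 3. In WT-TAC the medians were −0.26, 0.052 and 0.060 for replicates 1, 2 and 3. The KO-TAC medians lay on both sides of 0, and so did the WT-TAC medians.

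Other features also differed between the libraries, without following one order with the ribosomal protein genes. KO-TAC replicate 3 had the highest cardiomyocyte marker sum, 86641 CPM, the lowest fibroblast sum, 786 CPM, and the highest share of counts in Ttn, 10.4%. KO-TAC replicate 1, which held the most ribosomal protein counts, had the lowest cardiomyocyte sum, 60751 CPM, and the lowest Ttn share, 6.59%. WT-TAC replicate 1, which held the least, had the next lowest cardiomyocyte sum, 64950 CPM, and a Ttn share of 8.08%. The sum of the nuclear-retained RNAs Malat1, Neat1, Kcnq1ot1 and Meg3 was 17010 to 19512 CPM in KO-TAC and 13176 to 28158 CPM in WT-TAC, highest in WT-TAC replicate 1. That library also had the highest fibroblast marker sum, 2094 CPM over 6 genes, followed by KO-TAC replicate 1 with 1656 CPM. The macrophage sum, over 6 genes, ran from 144 to 253 CPM in KO-TAC and from 168 to 207 in WT-TAC, highest in KO-TAC replicate 1. The endothelial sum, over 6 genes, ran from 818 to 1116 CPM in KO-TAC and from 704 to 877 in WT-TAC, and the smooth muscle sum, over 4 genes, from 65.0 to 176 CPM in KO-TAC and from 197 to 258 in WT-TAC. The smooth muscle groups did not overlap, nor did those of the T cell markers, at 0.438 to 1.18 CPM in KO-TAC and 1.51 to 3.33 CPM in WT-TAC. Of the 4 T cell genes 0 passed the low-count filter, so those sums rest on few counts. Among single tested genes, 3.72% had groups that did not overlap and were lower in KO-TAC. The part of these features in the ribosomal protein values was not tested.

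**Figure D3:**
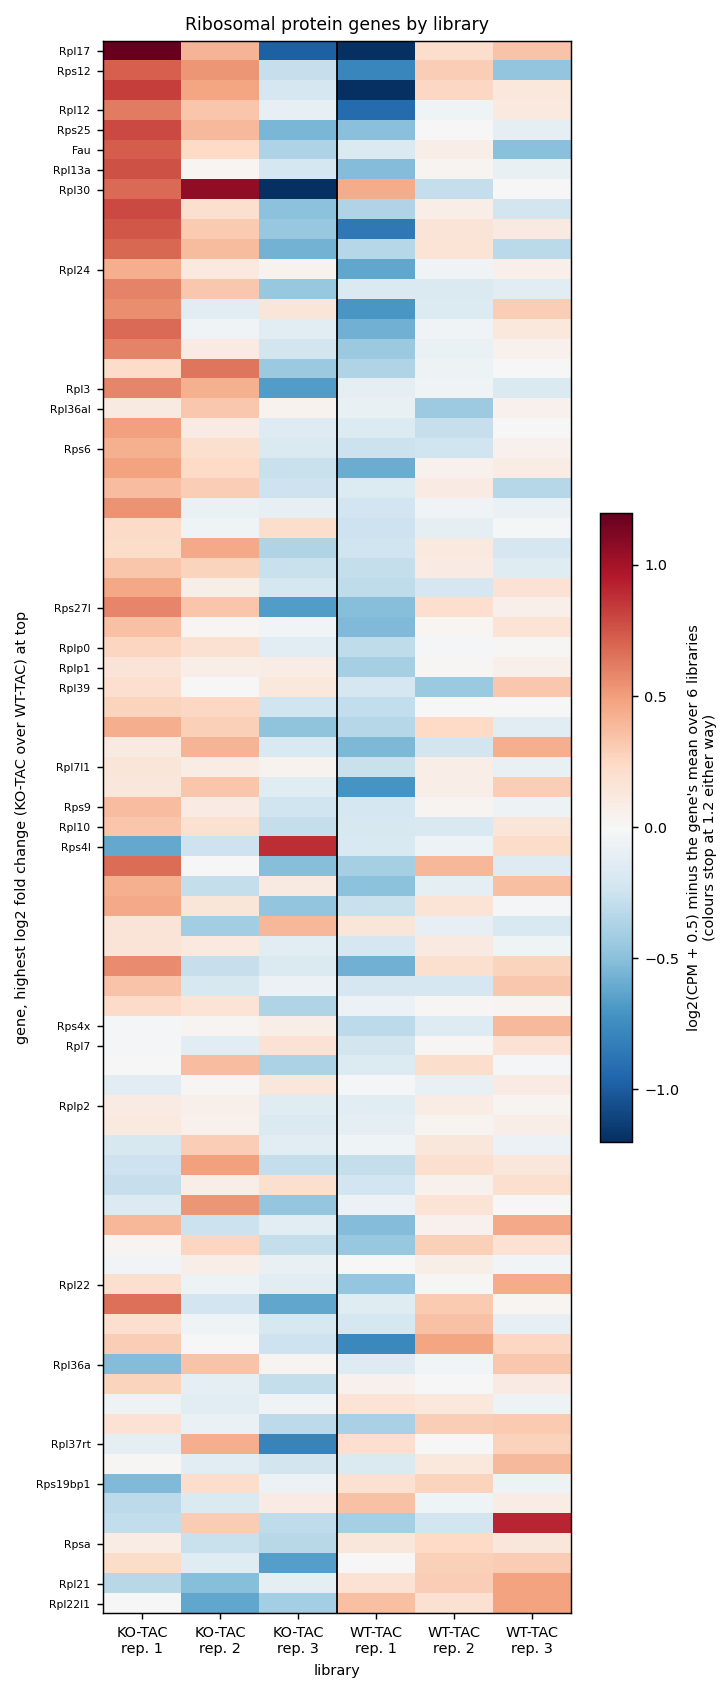
Tested ribosomal protein genes, without those not reported here (rows, ordered by log2 fold change, with the genes of the naming rule labelled), in 6 libraries (columns, KO-TAC left of the line and WT-TAC right of it). Colour is log2(CPM + 0.5) minus the gene's mean over libraries, red above and blue below; over all 82 tested genes KO-TAC replicate 1 is the highest library for 45, and WT-TAC replicate 1 or KO-TAC replicate 3 the lowest for 65.

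Rpsa, a small subunit gene, had the highest mean CPM of the 23 genes with a fold change below 0. It encodes a small subunit protein also known as the laminin receptor precursor, on chromosome 9 from 120127689 to 120132369 (GRCm38, GENCODE M21, as for all gene positions here). It had 170, 132 and 126 CPM in KO-TAC, against 174, 188 and 176 CPM in WT-TAC. Every KO-TAC library lay below every WT-TAC library, by a small margin for KO-TAC replicate 1. The log2 fold change was −0.33 ± 0.18 (SE, edgeR adjusted p = 0.999).

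Rps25, a small subunit protein needed for initiation at some internal entry sites, had 156, 118 and 61.3 CPM in KO-TAC and 63.7, 89.7 and 83.1 CPM in WT-TAC. Fau, which encodes a ubiquitin-like protein fused to a small subunit protein, had 186, 132 and 86.6 CPM in KO-TAC and 99.4, 119 and 79.3 CPM in WT-TAC. In both genes KO-TAC replicates 1 and 2 were the highest 2 of the 6 libraries and KO-TAC replicate 3 lay among or below the WT-TAC values. Rps12 had 17.8, 15.7 and 8.72 CPM in KO-TAC and 5.98, 13.2 and 7.53 CPM in WT-TAC, with the same order within KO-TAC. The log2 fold changes were 0.50 ± 0.29 for Rps25, 0.45 ± 0.26 for Fau and 0.65 ± 0.38 for Rps12 (SE). Rps6, the target of the S6 kinases whose phosphorylation is the usual readout of mTORC1, had 95.8, 81.5 and 63.2 CPM in KO-TAC and 59.6, 60.4 and 74.1 CPM in WT-TAC, a log2 fold change of 0.31 ± 0.20 (SE) with overlapping groups. Each of these had an adjusted p of 0.999 in edgeR.

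Among large subunit genes Rpl21 had the smallest unadjusted p, 0.00980. Rpl21 lies on chromosome 5 from 146832890 to 146837032 and 15 annotated pseudogenes are named after it. It had 26.0, 22.8 and 30.3 CPM in KO-TAC, against 37.1, 40.4 and 46.0 CPM in WT-TAC. The groups did not overlap, and the highest KO-TAC value stood well under the lowest WT-TAC value. The log2 fold change of Rpl21 was −0.64 ± 0.21 (SE), a ratio of 0.640 (95% interval 0.479 to 0.856). Its edgeR adjusted p was 0.999, and the log2 value was −0.76 to −0.55 with 1 library left out. Of the 50-base stretches of its transcript 55.5% also occur in transcripts of other annotated genes, against 60.6% in the median ribosomal protein gene. Its reads are uncertain for that reason, as are those of other genes of the family.

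Rpl12, a protein at the base of the ribosomal stalk, had 93.9, 76.8 and 56.7 CPM in KO-TAC and 31.9, 58.6 and 66.0 CPM in WT-TAC, a log2 fold change of 0.54 ± 0.27 (SE). Rpl24, a large subunit protein that bridges to the small subunit, had 89.4, 71.7 and 68.0 CPM in KO-TAC and 42.8, 64.3 and 68.9 CPM in WT-TAC, a log2 fold change of 0.38 ± 0.22 (SE). In both, WT-TAC replicate 1 was the lowest library and KO-TAC replicate 1 the highest, and KO-TAC replicate 3 lay within the WT-TAC range. Rpl13a, a large subunit protein whose gene holds 4 small nucleolar RNA genes, had the most counts of all 88 genes, with 658, 392 and 335 CPM in KO-TAC and 271, 397 and 364 CPM in WT-TAC. KO-TAC replicate 1 alone stood above the rest, and the log2 fold change of Rpl13a was 0.43 ± 0.26 (SE). Adjusted p in edgeR was 0.999 for each.

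**Figure D4:**
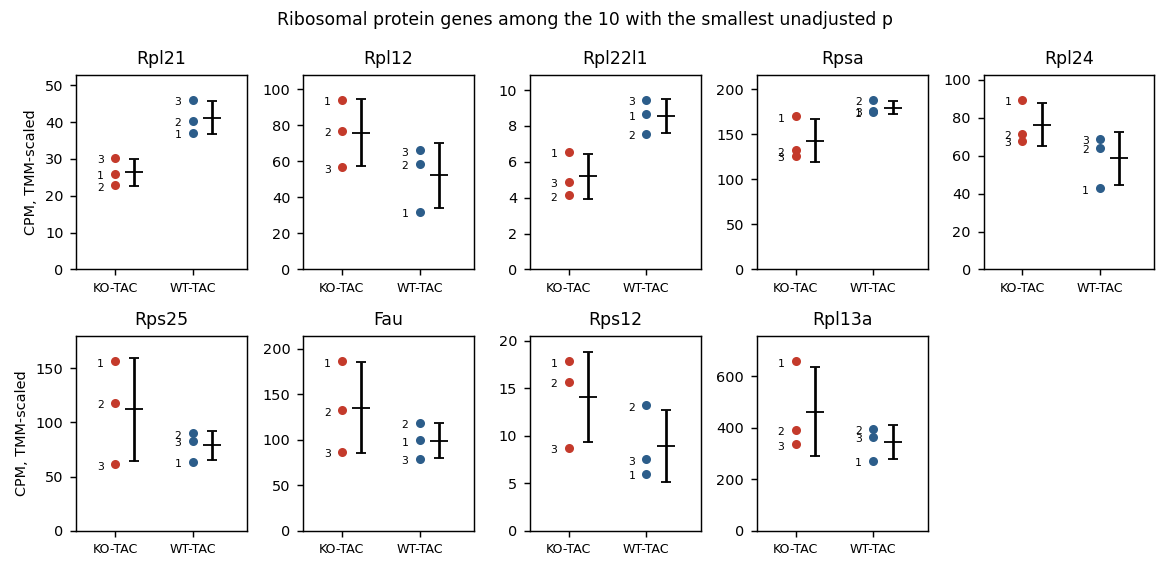
CPM in each library of ribosomal protein genes among the 10 with the smallest unadjusted p, KO-TAC left and WT-TAC right in each panel. Points are libraries with their replicate number and bars are the mean and SD of 3 libraries; the groups do not overlap in Rpl21, Rpl22l1 and Rpsa, all lower in KO-TAC.

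The stalk proteins recruit the elongation factors to the ribosome, and none passed the test. Rplp0, the stalk's anchor, had 362, 344 and 277 CPM in KO-TAC and 246, 301 and 307 CPM in WT-TAC, a log2 fold change of 0.20 ± 0.19 (SE). Rplp1 had 288, 274 and 276 CPM in KO-TAC and 196, 262 and 270 CPM in WT-TAC, a log2 fold change of 0.20 ± 0.19 (SE). Rplp2 had 350, 341 and 295 CPM in KO-TAC and 300, 348 and 334 CPM in WT-TAC, a log2 fold change of 0.0033 ± 0.18 (SE; 95% interval of the ratio 0.784 to 1.28). Adjusted p in edgeR was 0.999 for each. In Rplp1 each KO-TAC library stood above each WT-TAC library, and that gap was narrow. It was the only one of the 82 genes in that direction, 532 of all 12487 tested genes being so (4.26%), and Rpl21, Rpl22l1 and Rpsa were the 3 in the other, as were 3.72% of all tested genes. As shares of the 82 genes, neither count stands above its background.

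Steadiness differed among the genes. In the median gene the highest library held 1.84 times the CPM of the lowest, and in 18 of the 82 every library lay within 1.5 times. Rps3a1 (128 to 145 CPM over the 6 libraries), Rplp2 (295 to 350 CPM) and Rpl4, a large subunit protein, were the steadiest, and Rpl36 (15.3 to 77.7 CPM) was among the most variable; Rps3a1, Rpl4 and Rpl36 were picked after their values were seen. As a description of pairs of libraries, over the ribosomal protein genes with at least 20 counts in the pair, the chi-square per degree of freedom was 10.7 to 30.0 within a genotype and 9.55 to 28.9 between genotypes. The within-genotype and between-genotype ranges overlapped.

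Several ribosomal proteins have a second copy with its own gene, and in vertebrates some of these are used in particular tissues. Rpl3l, the paralog of Rpl3 found in heart and skeletal muscle, stands outside the 88 genes but takes the place of Rpl3 in muscle ribosomes. Rpl3 had 139, 125 and 58.1 CPM in KO-TAC and 85.3, 89.4 and 81.9 CPM in WT-TAC, while Rpl3l had 132, 134 and 250 CPM in KO-TAC and 55.1, 145 and 169 CPM in WT-TAC. KO-TAC replicate 3 was lowest of the 6 for Rpl3 and highest for Rpl3l. Neither passed the test, with log2 fold changes of 0.33 ± 0.27 for Rpl3 and 0.48 ± 0.42 for Rpl3l (SE, edgeR adjusted p = 0.999 for both).

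The balance of the pair differed up to several times between libraries of the same genotype. Counts per kilobase of transcript of Rpl3l over Rpl3 were 0.934, 1.05 and 4.23 in KO-TAC and 0.634, 1.60 and 2.03 in WT-TAC. The library with the lowest ratio, WT-TAC replicate 1, had the most Nppa, at 7904 CPM. Nppa encodes atrial natriuretic peptide and is expressed in the atria as well as in the loaded ventricle. The library with the highest ratio, KO-TAC replicate 3, had the least, at 311 CPM. Between them KO-TAC replicates 1 and 2 had 6602 and 5033 CPM of Nppa, and WT-TAC replicates 2 and 3, with higher ratios, 2444 and 2668 CPM. Nppa was set beside the ratio after its values were seen, and the relation was not tested. Ventricular load and the amount of atrial tissue in a sample cannot be told apart by Nppa. Of the 1302 stretches of 50 bases in the Rpl3 transcript 0 occur in Rpl3l transcripts, so reads of that length with no mismatch tell these paralogs apart, although 85.6% of them occur in transcripts of other genes.

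No member of the other paralog pairs passed the test. Rpl22l1, a paralog of the large subunit gene Rpl22, had 6.58, 4.13 and 4.88 CPM in KO-TAC, against 8.65, 7.57 and 9.45 CPM in WT-TAC. The groups did not overlap, and the log2 fold change was −0.72 ± 0.38 (SE). Rpl22 itself had 156, 130.5 and 124 CPM in KO-TAC and 98.3, 137 and 185 CPM in WT-TAC, a log2 fold change of −0.036 ± 0.22 (SE). Rpl36al had a log2 fold change of 0.31 ± 0.23 and its paralog Rpl36a −0.068 ± 0.27 (SE). Rpl7 and Rpl7l1, a relative of Rpl7 in ribosome assembly, had 0.024 ± 0.18 and 0.18 ± 0.20, Rps4x and the processed copy Rps4l 0.028 ± 0.21 and 0.15 ± 0.37, Rps27l 0.23 ± 0.32, Rpl10 0.17 ± 0.22 and Rpl39 0.20 ± 0.33 (SE). Adjusted p in edgeR was 0.999 for each of them. The copies best known from testis were at or near zero: Rpl10l had 0 counts in all libraries and Rpl39l 2 counts over all libraries. Rps19bp1 had 6.67 ± 1.78 CPM in KO-TAC and 7.92 ± 0.965 CPM in WT-TAC (SD, n = 3 each), a log2 fold change of −0.24 ± 0.37 (SE).

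Levels per kilobase of the annotated principal transcript, a measure that allows genes to be compared, ranged widely. Apart from the stalk proteins Rplp1 and Rplp2, most of the proteins are needed in like numbers. Among the 5 highest tested genes were Rplp2 with 779 CPM per kilobase, Rplp1 with 523, Rpl13a with 385 and Rps9 with 300, means over all 6 libraries. Rps9, a small subunit protein, had a log2 fold change of 0.17 ± 0.20 (SE). The 5 lowest tested were Rpl30 with 3.02 CPM per kilobase, Rpl17 with 4.75, Rps19bp1 with 8.70, Rpl37rt with 10.5 and Rpl22l1 with 12.5. Rpl30 had 17, 28 and 0 counts in KO-TAC and 13, 9 and 10 in WT-TAC, and Rpl17 64, 32 and 8 counts in KO-TAC and 4, 29 and 27 in WT-TAC. The 95% interval of the ratio ran from 0.357 to 5.06 for Rpl30 and from 0.658 to 5.24 for Rpl17, and both span 1. Rpl37rt had a log2 fold change of −0.24 ± 0.39 (SE).

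The 6 genes that the filter removed include genes of ordinary ribosomal proteins. Rpl26, Rps27rt and Rpl10l had 0 counts in all libraries, Rpl39l 2 counts in all, Rps27 26 and Rpl34 48. The table therefore does not give the level of Rpl26, Rps27 and Rpl34, which every cell uses, and a listed 0 is no sign that the gene is silent.

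Near-identical copies are the family's other hallmark. In the mouse annotation 301 pseudogenes are named after 62 of the 88 genes, led by 24 each for Rpl31 and Rps12, and the median gene shared 60.6% of its 50-base stretches with transcripts of other annotated genes (86 genes with a value). The share was 98.6% in Rps27, of whose 296 stretches 292 occur in Rps27rt, and 71.3% in Rpl26. The 21 genes with at least 80% shared had a median of 62.3 CPM per kilobase, the 39 with 40% to 80% 73.4, and the 26 under 40% 107, with a wide overlap. Rps3 stood at 2.96% shared. Reads that fit a gene and its copies cannot be told apart in these counts, and the sources used here do not say how the counting treated them. The lean of the fold changes was alike across these classes, with median log2 fold changes of 0.18 in the 19 tested genes with at least 80% shared, 0.18 in the 37 between and 0.18 in the 24 under 40%.

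**Figure D5:**
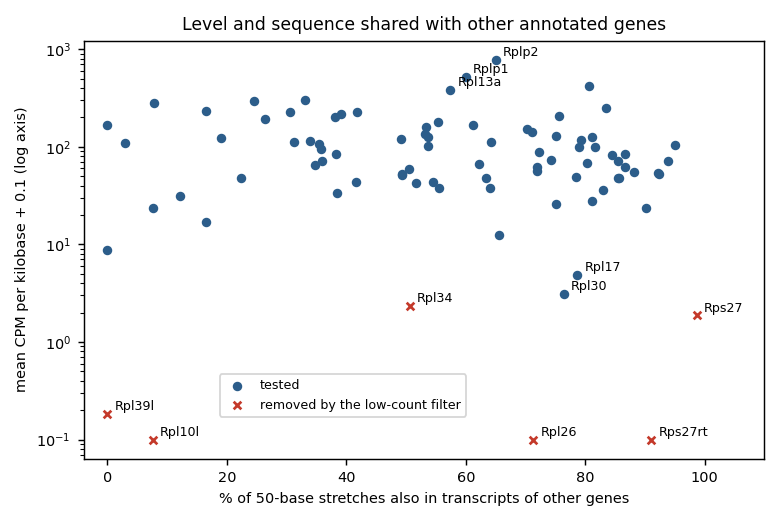
Mean CPM per kilobase plus 0.1 over 6 libraries (log axis) against the share of a transcript's 50-base stretches also found in transcripts of other genes (%), for 86 ribosomal protein genes. Blue points were tested and red crosses were removed by the low-count filter; Rpl26, at 71.3% shared, Rps27rt, at 91.1%, and Rpl10l, at 7.60%, lie at the bottom with 0 counts, and Rps27, at 98.6%, lies higher, near Rpl34 and Rpl30.

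The fold changes of all other genes differed with exon length. Under 1 kilobase of exon, the median log2 fold change was 0.20 over 14 tested ribosomal protein genes and 0.055 over 267 other genes. From 1 to 2 kilobases the medians were 0.18 for 33 ribosomal protein genes and 0.059 for 1116 others, from 2 to 4 kilobases 0.15 for 29 and 0.031 for 3488, and over 4 kilobases 0.26 for 6 and −0.022 for 7075. The ribosomal protein median was above that of the other genes in each class, and the others were below 0 only over 4 kilobases. Exon length here is that of all annotated exons of a gene together. The ribosomal protein genes over 4 kilobases have principal transcripts of 633 bases (Rps19) to 3706 bases (Rps20), so the classes do not match transcript length. The part of length in the ribosomal protein values was not tested.

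Genes that make or serve the ribosome showed no called change either. Of the elongation factors and other TOP messenger RNAs, 13 of 24 tested genes lay above 0 (median log2 fold change 0.026, 0 called each way). The smallest p values were those of Snhg8, a small nucleolar RNA host, at −1.30 ± 0.50, Pabpc1, the poly(A)-binding protein, at −0.39 ± 0.20, and Gas5, a noncoding TOP transcript, at −0.50 ± 0.27 (SE). All 3 lay below 0, but they were picked by their p values, and the list as a whole did not lean below 0. Of the initiation factors 17 of 30 were above 0 (median 0.020, 0 called), with Eif3d at 0.41 ± 0.19, Eif3i at 0.29 ± 0.19 and Eif4e, the cap-binding protein, at −0.40 ± 0.30 (SE).

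Ribosome biogenesis and RNA polymerase I genes had 27 of 43 above 0 (median 0.10, 0 called). Among them Mybbp1a, a nucleolar protein, had a log2 fold change of 0.35 ± 0.17, Fbl, the methyltransferase fibrillarin, 0.61 ± 0.33, and Polr1e, a polymerase I subunit, −0.52 ± 0.33 (SE). The mTORC1 and Myc regulators had 17 of 35 above 0 (median −0.0040, 0 called), with Max, the partner of Myc, at −0.41 ± 0.22, Pdcd4, an inhibitor of the helicase of initiation, at −0.38 ± 0.22 and Mycn at 1.22 ± 0.75 (SE). Adjusted p in edgeR was 0.999 for each gene named from these lists.

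The mitochondrial ribosomal proteins, the group most like this one in function, had 52 of 77 genes above 0 and a median log2 fold change of 0.081, with 0 called and 2 at an unadjusted p under 0.05. These were Mrpl54, with 58.4 ± 7.54 CPM in KO-TAC and 39.7 ± 2.13 CPM in WT-TAC, and Mrps34, with 47.4 ± 13.8 CPM in KO-TAC and 29.3 ± 2.32 CPM in WT-TAC (SD, n = 3 each), log2 fold changes of 0.56 ± 0.19 and 0.70 ± 0.24 (SE). Mrps6 had 0.65 ± 0.31 (SE), and edgeR's adjusted p was 0.999 for all 3. Whether the cytosolic and mitochondrial genes differ in their lean was not tested.

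Few ribosomal protein genes carry a seed match to the deleted microRNA in the 3' UTR. The mature strand, from RefSeq (GRCm38.p6, chr19:22750610-22750631, plus strand), is shown with its seed, bases 2 to 8, in capitals.
mmu-miR-204-5p: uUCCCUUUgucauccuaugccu
The match AAAGGGA was found on the sense strand of the longest annotated 3' UTR in 3 of 80 tested genes with one, Rps3, Rps20 and Rpsa (3.75%), against 17.1% of 11590 other tested genes. The ribosomal protein UTRs are short, with a median of 156 bases against 1262 in the others, so the shares are not over equal lengths. Those of Rps3, Rps20 and Rpsa were annotated at 1059, 3167 and 875 bases. Whether the transcripts of these 3 genes in these hearts hold the match was not tested. Their log2 fold changes were 0.34 ± 0.23 for Rps3, 0.20 ± 0.20 for Rps20 and −0.33 ± 0.18 for Rpsa (SE), without a common direction, and edgeR's adjusted p was 0.999 for each; Rps3 and Rps20 were named after their values were seen.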

How the data were processed

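The deposited table, made by the authors, holds raw counts per gene symbol with no normalization. Per the submitters' processing notes, which give no roles, the builds named are mm10 and GRCm38 and the tools FastQC, Subread, edgeR and HISAT2 2.1.0. Per the labels' protocols, libraries came from a plain or a stranded kit, and no source used here states whether counting used strand, so reads of overlapping and of antisense genes may be mixed.

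Counts were tested on the whole table with edgeR 4.0.16 in R 4.3.3: filterByExpr with a minimum count of 10, TMM scaling, and a robust quasi-likelihood fit of KO-TAC against WT-TAC with no covariate, called at a Benjamini-Hochberg adjusted p under 0.05. SE was taken as the size of the log2 fold change divided by the root of F. Intervals span 1.96 SE, a normal multiple, and are narrower than the quasi-likelihood test implies, so they are 95% only in name. Rpl12, for example, had an interval of 1.01 to 2.09 at an unadjusted edgeR p of 0.0668. Alternatives were other scalings and filters, DESeq2 1.42.0, limma-voom (limma 3.58.1), a replicate block and each library left out. The fit was also run on data simulated with larger changes than any ribosomal protein gene showed. That run does not bear on smaller changes. The biological coefficient of variation was 0.286.

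All 88 symbols matched GENCODE M21 (GRCm38). Shared sequence counts exact 50-base words of the APPRIS principal transcript, on either strand, in transcripts of other annotated genes. Levels per kilobase use that transcript, or all exons for the 2 pseudogenes.

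Members and lists were chosen with earlier results of these data known. Named are the 10 smallest p values, the 5 highest and 5 lowest per kilobase, paralog pairs, stalk proteins, Rpsa, Fau, Rps6, genes removed by the filter, and 3 genes of each related list; some genes the rule names are not reported here.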

Additional observations from a re-analysis of the deposited data

How the results depend on the processing

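No ribosomal protein gene was called, in either direction, under any alternative run. Over all genes 3 were called with edgeR, 21 without a filter on low counts, 16 with DESeq2, 0 with limma-voom (376 at an unadjusted p under 0.05) and 6 with the replicate block, and 0 to 7 with 1 library left out, 0 being without WT-TAC replicate 1 (437 unadjusted), and 6 and 7 without KO-TAC replicates 3 and 2. Deviations from the group means correlated at 0.13, 0.011 and 0.26 between same-numbered libraries, and at −0.22 to 0.15 between others. KO-TAC replicates 1 and 3 correlated best with the same-numbered WT-TAC library, and KO-TAC replicate 2 with WT-TAC replicate 1. Whether the replicate numbers pair the libraries was not tested, and the block left the ribosomal protein median at 0.16.

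The median log2 fold change of the ribosomal protein genes was 0.15 with no scaling to 0.18 with upper-quartile scaling, 0.17 in DESeq2 and 0.16 in limma-voom, and it was 0.034 to 0.25 with 1 library left out. The number above 0 was 46 to 66 with 1 library left out and 52 with no scaling, which also put 46.2% of all tested genes above 0. With canonical symbols alone the median was 0.18, and with a mean of at least 50 counts 0.17. The log2 ratio of the shares of counts was −0.012 to 0.27 with 1 library left out, 0.15 without the 10 genes with the most counts and 0.17 in CPM. Of the related lists, the TOP genes had a median of −0.063 without WT-TAC replicate 1. Leaving out WT-TAC replicate 3 gave 0.042 for biogenesis and 0.090 for the mTORC1 and Myc genes.

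Signs of several genes depended on the setting, none of them called, and the cause was not tested. Rplp2 was −0.00052 with RLE scaling, −0.021 with no scaling, −0.00057 in DESeq2, −0.000083 in limma-voom with quality weights and −0.060 to 0.074 with 1 library left out. Rpl30 was −0.62 in limma-voom, −0.047 with the block and −0.24 to 1.00 with 1 library left out. Rpl22 was 0.0044 in limma-voom, 0.0015 with the block and −0.24 to 0.22 with 1 library left out. Rpl7 was −0.0043 with no scaling, −0.044 in limma-voom with quality weights and −0.078 to 0.12 with 1 library left out. Rps4x was −0.00057 with no scaling and −0.11 to 0.27 with 1 library left out. Rps4l was −0.011 in limma-voom, −0.19 with quality weights and −0.44 to 0.43 with 1 library left out. With 1 library left out Rpl17 ran from −0.0094 to 1.35, Rpl37rt from −0.62 to 0.032, Rps27l from −0.033 to 0.52 and Rpl36a from −0.29 to 0.14. Rpl30 and Rpl17 rest on 77 and 164 counts over all libraries.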
